A study of Mus musculus with 9 samples.

Results

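Serpinf1, Thbs1, Thbs2, Thbs3, Thbs4, Sparc, Sparcl1, Cnmd and Vash1 encode secreted proteins known to restrain vessel growth or related to such proteins. These 9 genes were chosen by name from the 39179 genes listed in each count file, and each was matched by its symbol to 1 Ensembl identifier. Cnmd is also known as Lect1. They were followed in capillaries and the cells around them, cut by laser microdissection from the ossification front (OF) of the femur, and read out by RNA sequencing. The mice were Tg(TIE2GFP)287Sato/J on a C57BL/6 background, in which the Tie2 promoter drives GFP in endothelial cells, and all 9 libraries come from this reporter line. Of these, 5 came from juvenile mice aged 4 weeks and 4 from adult mice aged 12 weeks, without treatment named in the labels. GFP served to find the vessels, so each library pools cut pieces that also hold perivascular and bone cells, and fewer cells of a type cannot be told apart from less RNA per cell.

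Blood vessels advance into the OF while bones grow, and the matrix around them holds both attractants and inhibitors. Serpinf1 encodes pigment epithelium-derived factor (PEDF), a serpin that no longer inhibits proteases, blocks the growth of new vessels and is required for normal bone mineralization. Thrombospondins are matricellular glycoproteins. Thbs1 and Thbs2 form trimers whose properdin-like repeats bind CD36 and halt endothelial cells, whereas Thbs3, Thbs4 and the cartilage protein encoded by Comp form pentamers that lack these repeats. Sparc encodes osteonectin, a collagen-binding protein abundant in bone, and Sparcl1 (hevin) is its closest relative. Cnmd encodes chondromodulin, which keeps cartilage free of vessels, and Vash1 encodes vasohibin, made by endothelial cells as a feedback inhibitor.

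Library totals ranged from 4856833 to 7398483 counts in juvenile and from 5821596 to 8077362 counts in adult mice. Of the 9 libraries, 7 had more counts on Xist than on Y-linked genes, and the others were juvenile replicates 4 and 5. Endothelial markers were present at both ages, with summed levels of 592 to 935 CPM (counts scaled to the effective library size) in juvenile and 701 to 916 CPM in adult libraries, and 0 of the 10 genes had an adjusted or an unadjusted p under 0.05 in edgeR. Markers of marrow cells differed between libraries. Neutrophil markers summed to 5.80 to 64.0 CPM in juvenile libraries and to 3475 to 4301 CPM in adult replicates 1, 3 and 4, against 91.2 CPM in adult replicate 2. Adult replicate 2 instead held 4569 CPM of chondrocyte markers, where the other 8 libraries held 366 to 1014 CPM.

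Serpinf1 and Sparc were higher in juvenile than in adult mice, by 3.95 and 2.32 times, and their normalised counts did not overlap between the ages. Thbs1 and Sparcl1 had higher mean levels in adult mice, by 2.17 and 2.28 times, with adjusted p-values of 0.065 and 0.0824 in edgeR's quasi-likelihood test. Thbs2, Thbs3 and Vash1 were tested without a call, and Thbs4 and Cnmd did not pass the filter on low counts, with most of their counts in 1 library. Of the 9 genes, 7 passed the filter on low counts, 2 of these were called at an adjusted p under 0.05, both higher in juvenile mice, and 0 were called higher in adult mice, whereas 5 had an unadjusted p under 0.05. Over all 13418 genes tested, 3.88% were called, 1.99% with juvenile mice higher and 1.89% with adult mice higher. An unadjusted p under 0.05 in edgeR was found for 2321 of these 13418 genes. The normalised counts of the ages did not overlap for 9.15% of the genes tested. DESeq2 and limma voom called 4 and 2 of the 9 genes, and DESeq2 added Thbs1 (adjusted p = 0.00927) and Sparcl1 (adjusted p = 0.0195). Over all genes, DESeq2 called 1490 of the 21512 genes with a count and limma voom 460 of 13418. DESeq2 gave no adjusted p to some of the 21512, Thbs4 and Cnmd among them, so those could not be called. The share of calls among genes with an adjusted p is thus higher than this fraction.

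**Figure D1:**
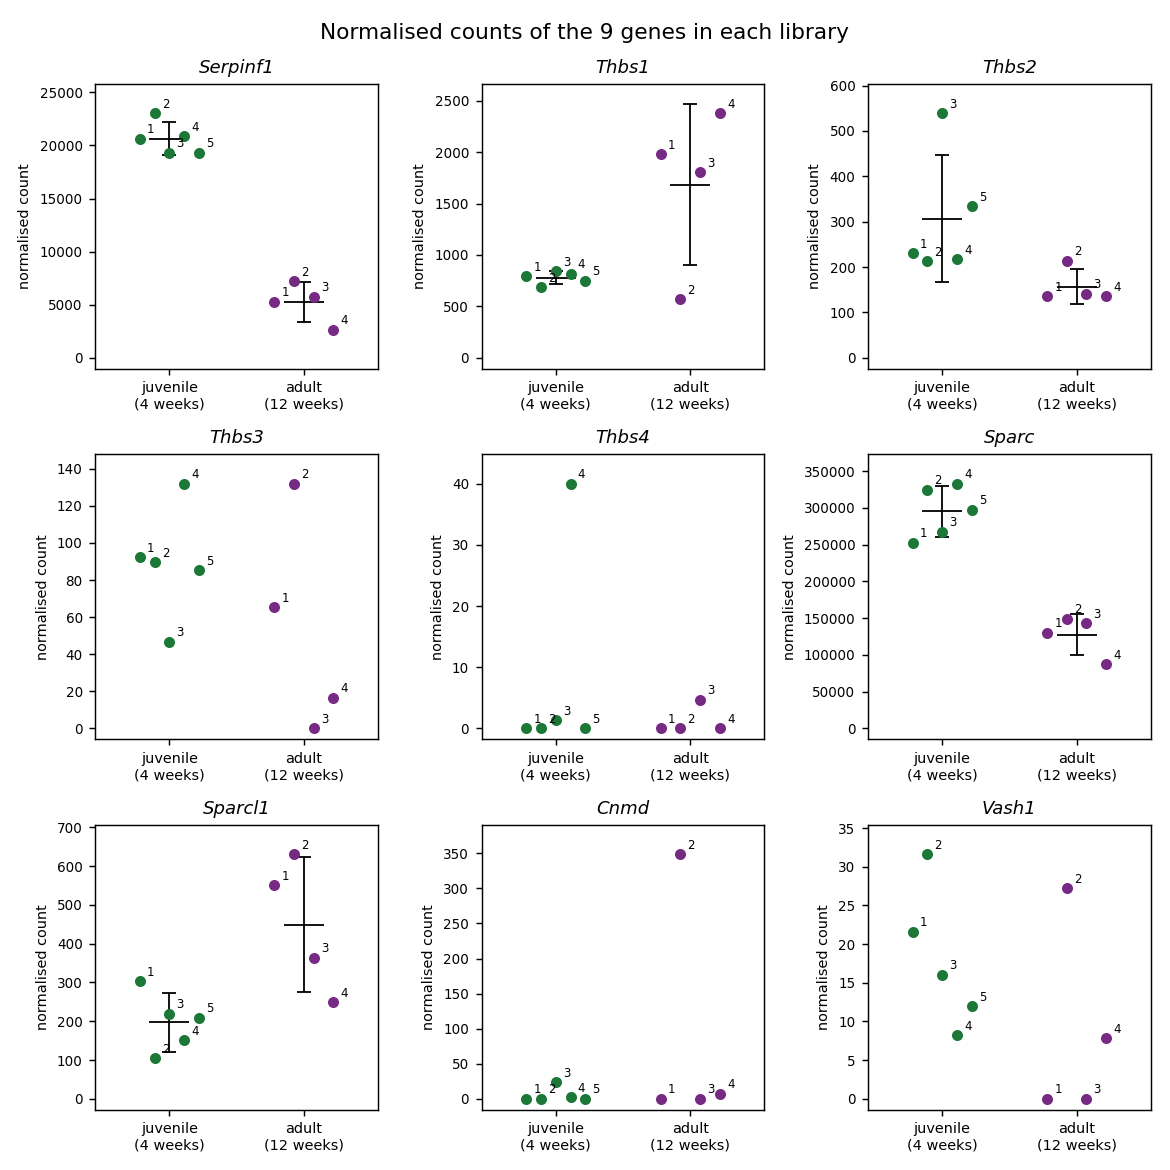
Normalised counts (counts divided by the relative effective library size, linear axes from 0) of the 9 genes, with 1 numbered point per library, green for juvenile (n = 5) and purple for adult mice (n = 4). Black bars give the mean and SD and are left out for genes with a count of 0 in any library. Serpinf1 and Sparc separate the ages completely, and the adult point outside the others in the Thbs1 and Cnmd panels is replicate 2.

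Levels of different genes were compared per kilobase of exon (RPKM), without a test. Sparc stood far above the other genes, at 12418 ± 1474 RPKM (SD, n = 5) in juvenile against 5357 ± 1177 RPKM (SD, n = 4) in adult mice, place 2 and place 11 among 21088 genes. Serpinf1 followed at 1394 ± 104 RPKM (SD, n = 5) and 353 ± 128 RPKM (SD, n = 4), places 29 and 125. Thbs1 was at 20.4 ± 1.63 RPKM (SD, n = 5) in juvenile against 44.2 ± 20.5 RPKM (SD, n = 4) in adult mice. Sparcl1 was at 10.7 ± 4.08 RPKM (SD, n = 5) and 24.3 ± 9.43 RPKM (SD, n = 4), and Thbs2 at 6.98 ± 3.17 RPKM (SD, n = 5) and 3.56 ± 0.872 RPKM (SD, n = 4). Sparcl1 reached at most 16.4 RPKM and Thbs1 at least 18.0 RPKM in juvenile libraries. In adult libraries the ranges of Thbs1 (14.9 to 62.4 RPKM) and Sparcl1 (13.5 to 34.2 RPKM) overlapped. Thbs3 and Vash1 did not exceed 4.36 and 1.94 RPKM in any library.

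Serpinf1 (ENSMUSG00000000753, GRCm38 chr11:75409769-75422701, minus strand) had the largest log2 fold change of the 7 genes tested. Juvenile replicates 1 to 5 had 20623, 23055, 19305, 20862 and 19323 normalised counts. Adult replicates 1 to 4 had 5281, 7208, 5756 and 2663. The lowest juvenile library thus exceeded the highest adult library, and the juvenile libraries lay close together while adult replicate 4 was lowest. The log2 fold change, juvenile over adult, was 1.98 (with a standard error, SE, of 0.24, 95% confidence interval 1.46 to 2.50, adjusted p = 0.00106, edgeR's quasi-likelihood test). Without juvenile replicates 4 and 5, which had more Y-linked than Xist counts, it was 2.01 (adjusted p = 0.022, edgeR). The bases upstream of the gene are shown because Serpinf1 had the largest change among these genes. RefSeq sequence of GRCm38.p6 was at hand for 7 of the 9 genes, without Thbs1 and Sparcl1, and the stretch was limited to chr11:75422702-75422873 on the minus strand, which lies outside the GENCODE exons. Capitals mark the letters TGTGGT, the core recognised by RUNX factors such as the osteoblast regulator RUNX2.
Serpinf1: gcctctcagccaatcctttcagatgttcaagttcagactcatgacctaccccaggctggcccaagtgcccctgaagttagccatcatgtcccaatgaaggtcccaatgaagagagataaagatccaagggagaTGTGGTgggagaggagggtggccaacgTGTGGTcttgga
This core occurred 2 times in the 172 bases, searched on both strands, and at least once in 9.91% of the first 172 bases of 32851 RefSeq promoter windows. The letters CCAAT occurred 3 times (23.6% of the windows held them), and neither TATAAA (8.13%) nor GGGCGG (19.8%) was found in these 172 bases. Each RefSeq window held 250 bases upstream of the RefSeq start, and the bases after the first 172 were not searched, in Serpinf1 or in the other windows. These matches describe the letters, and binding was not measured.

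Genes whose pattern over the 9 libraries lay closest to that of Serpinf1 were Pcolce, which enhances procollagen processing, Mfap2, a microfibril component, and Creb3l1, a transcription factor of collagen secretion. The root mean square difference of their centred log2 CPM was 0.25, 0.31 and 0.32. Their log2 fold changes were 1.86, 2.03 and 1.58, given without a test because the genes were chosen on these libraries. Genes were ranked among 7862 candidates with a mean log2 CPM of at least 4.

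Sparc (ENSMUSG00000018593, chr11:55394500-55423183, minus strand) is among the most abundant transcripts of these samples. Its share of all counts was 3.89% to 4.86% in juvenile and 1.54% to 2.44% in adult libraries. In juvenile replicates 1 to 5 the normalised counts were 252568, 324887, 267683, 333267 and 297719. Adult replicates 1 to 4 had 130143, 149084, 143102 and 87080.1. Adult replicate 4 was again lowest, and every juvenile library was above every adult library. Adult replicate 4 also had the highest sum of erythroid markers, 33820 CPM against 4079 to 10030 CPM in the other adult libraries, and the part of this in the levels of Serpinf1 and Sparc was not tested. The log2 fold change was 1.21 (SE 0.17, 95% confidence interval 0.85 to 1.58, adjusted p = 0.00263, edgeR). Without juvenile replicates 4 and 5 it was 1.15 (adjusted p = 0.04, edgeR). The closest patterns were those of the collagen genes Col1a2 and Col5a1 and of Kdelr3, a retrieval receptor of the endoplasmic reticulum, at 0.094, 0.12 and 0.14 log2 units. Col1a2 had a log2 fold change of 1.25, Col5a1 one of 1.34 and Kdelr3 one of 1.06.

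Osteoblast markers moved with Serpinf1 and Sparc. The 12 markers summed to 171600 to 213900 CPM in juvenile and 62710 to 94000 CPM in adult libraries, 6 of them were called higher in juvenile mice, and Bglap was called higher in adult mice. The count of 6 fell to 3 without juvenile replicate 3 or juvenile replicate 4 and to 1 when libraries were scaled on endothelial markers. The list holds Col1a2 and none of the 9 genes. Its sum rests mostly on Col1a1 and Col1a2, with means of 475826 and 515334 normalised counts in juvenile libraries. Ibsp came next at 135570. The mean log2 CPM of the 12 markers was 10.79 to 10.98 in juvenile and 9.87 to 10.39 in adult libraries. Runx2, Alpl, Pth1r, Dlx5 and Spp1 were not called. When libraries were scaled on the geometric mean of these 12 markers, the median of all genes shifted to -0.64 on the log2 scale. On that scale Serpinf1 had a log2 fold change of 1.42 (adjusted p = 0.001, edgeR) and Sparc one of 0.62 (adjusted p = 0.00588, edgeR). Sparcl1 and Thbs1 were then called higher in adult mice, with log2 fold changes of -1.75 and -1.81 (adjusted p = 0.00505 and 0.00566, edgeR). Only 5.01% of the 2313 calls were then higher in juvenile mice, against 51.4% of the 520 calls with the default scaling. When libraries were scaled on the 10 endothelial markers, the median of all genes was -0.25, Serpinf1 was called at 1.84 (adjusted p = 0.00367, edgeR), and Sparc at 1.04 was not (adjusted p = 0.0702, edgeR).

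**Figure D2:**
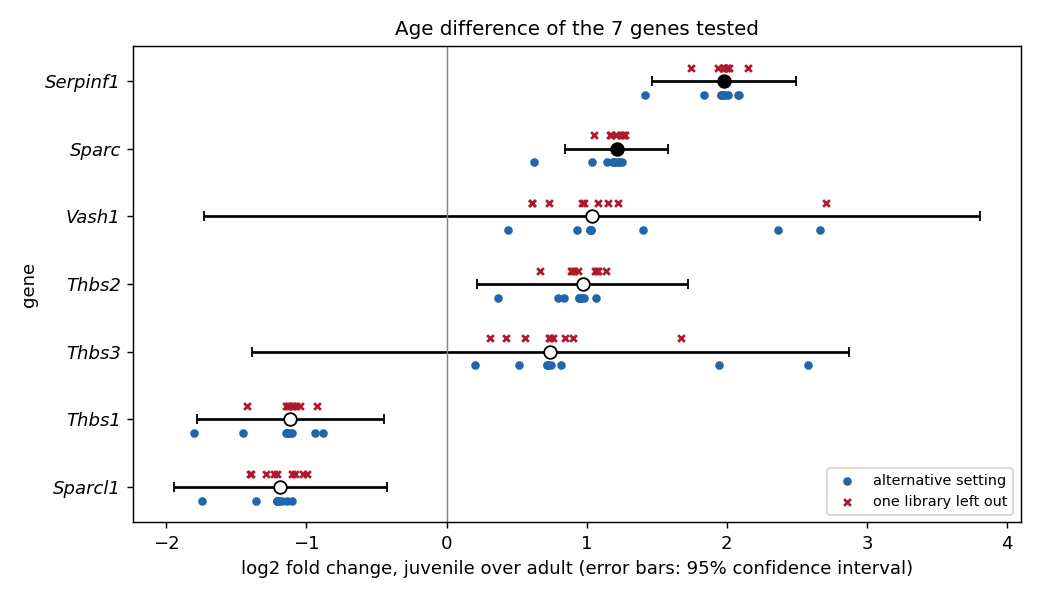
Log2 fold changes (x axis, juvenile over adult) of the 7 genes tested, by gene on the y axis. Circles with bars are edgeR estimates with 95% confidence intervals, filled where the adjusted p is under 0.05, blue dots are alternative settings and red crosses are fits with 1 library left out. Serpinf1 and Sparc lie to the right of 0 in every fit, Thbs1 and Sparcl1 to the left, and the intervals of Thbs3 and Vash1 span 0.

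Sparcl1 (ENSMUSG00000029309, chr5:104079111-104113733, minus strand) had a difference of the opposite sign from that of Sparc, which did not pass the test. Its normalised counts in juvenile replicates 1 to 5 were 303, 104, 219, 151 and 209. In adult replicates 1 to 4 they were 551, 631, 363 and 249. Adult replicate 4, the lowest adult library, fell below juvenile replicate 1, so the ages overlapped. The log2 fold change was -1.19 (SE 0.35, 95% confidence interval -1.95 to -0.43, adjusted p = 0.0824, edgeR). The log2 ratio of Sparc to Sparcl1 counts does not depend on library scaling. It was 10.62 ± 0.74 (SD, n = 5) in juvenile against 8.21 ± 0.38 (SD, n = 4) in adult mice, a difference of 2.42. The lowest juvenile ratio, 9.70, exceeded the highest adult ratio, 8.62 (p = 0.00794 in a two-sided exact permutation test, which is the lowest value possible with 126 splits, and 0.0159 after Benjamini-Hochberg adjustment over the 2 ratios tested). Sparcl1 lies 88879 bases from Dmp1, a mineralization gene on chromosome 5. Dmp1 had 5426 to 12698 normalised counts in juvenile and 1911 to 3095 in adult libraries.

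Thbs1 (ENSMUSG00000040152, chr2:118111876-118127133, plus strand) had the highest level per length of Thbs1 to Thbs4, with 66.7% ± 3.99 (SD, n = 5) of the summed RPKM of Thbs1 to Thbs4 in juvenile against 85.1% ± 15.7 (SD, n = 4) in adult mice. Comp, left out of that sum, was at 0.0633 to 2.72 RPKM in juvenile and 1.98 to 163 RPKM in adult libraries, and exceeded Thbs1 in adult replicate 2. Juvenile replicates 1 to 5 had 795, 684, 841, 818 and 749 normalised counts. Adult replicates 1 to 4 had 1981, 567, 1806 and 2380. Of the adult libraries, 3 were more than 2 times as high as every juvenile library, and replicate 2 was below all of them. With all libraries the log2 fold change was -1.12 (SE 0.31, 95% confidence interval -1.78 to -0.45, adjusted p = 0.065, edgeR). Without adult replicate 2 it was -1.42 (SE 0.17 and an edgeR adjusted p = 0.000875). Some markers of marrow cells were high in the adult libraries with high Thbs1. Here 7 of 7 neutrophil markers tested and 1 of 7 macrophage markers, Csf1r, were called higher in adult mice, and adult replicate 2 had mean log2 CPM of 2.05 and 2.13 for these lists against 7.005 to 7.56 and 5.60 to 6.71 in the other adult libraries. By contrast, Csf1r had 3966 normalised counts in adult replicate 2 against 3800 to 4573 in the other adult libraries. The size of the macrophage gap depends on the measure. Summed, these markers were at 1011 CPM in adult replicate 2, above the juvenile range of 481.5 to 811.4 CPM. The other adult libraries held 1163 to 1675 CPM. Erythroid markers, 6 of 6 called higher in adult mice, summed to 4079 CPM there, against 340 to 2434 CPM in juvenile libraries and 7215 to 33820 CPM in the other adult libraries. Of these 6 calls, 3 to 6 were made with 1 library left out and 0 without juvenile replicates 4 and 5. Of the 7 neutrophil markers, limma voom called 1 and edgeR with the replicate number as a block called 5. None of the neutrophil markers had at least 10 counts in every library. Ltf had at most 1.18 normalised counts in juvenile libraries and Ngp was at 0 in 4 of them, so both passed the low-count filter through adult libraries. Camp and Elane had at most 30.6 and 25.3 normalised counts in juvenile libraries, with medians of 4.55 and 0. The count of 7 neutrophil calls thus rests partly on genes that were testable because adult libraries were high. Platelets carry Thbs1 protein, and 1 of 3 platelet markers tested was called higher in adult mice. Platelet markers summed to 13.0 to 26.3 CPM in juvenile libraries, where Gp9, Gp1ba and Gp6 were at 0 and Gp1bb was at 58.8 to 76.2 normalised counts. In adult replicates 1 to 4 they summed to 606, 97.9, 62.4 and 4299 CPM, so replicate 2, lowest in Thbs1, was above replicate 3. Gp1bb was at 21.0 and 2.33 normalised counts in adult replicates 2 and 3, below every juvenile library. Markers of adipogenic marrow stroma summed to 943, 426, 1063 and 1196 CPM in adult replicates 1 to 4, against 311 to 472 CPM in juvenile libraries. Of these 7 markers, all tested, 1 was called higher in adult mice and 1 higher in juvenile mice. The part of marrow cells, blood or stromal, in the Thbs1 counts was not tested. Exons of Thbs1 share 208 bases with Gm29233, a noncoding gene on the opposite strand.

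Thbs2 (ENSMUSG00000023885, chr17:14665500-14694235, minus strand) had 231, 212, 540, 217 and 334 normalised counts in juvenile replicates 1 to 5. In adult replicates 1 to 4 it had 136, 214, 141 and 135. The ages met at adult replicate 2, which lay just above juvenile replicate 2. The log2 fold change of 0.97 did not pass (SE 0.35, 95% confidence interval 0.22 to 1.72, adjusted p = 0.152, edgeR). The log2 ratio of Thbs1 to Thbs2 counts was 1.43 ± 0.53 (SD, n = 5) in juvenile against 3.27 ± 1.26 (SD, n = 4) in adult mice (two-sided exact permutation test, p = 0.0397, also 0.0397 after adjustment over the 2 ratios). Adult replicate 2, at 1.40, lay within the juvenile range of 0.64 to 1.91, and the other adult libraries were at 3.67 to 4.13. The p was between 0.0714 and 0.114 when any other library was left out. Without adult replicate 2 it was 0.0179, the lowest value this test can give with the libraries that remain, which no longer overlap.

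**Figure D3:**
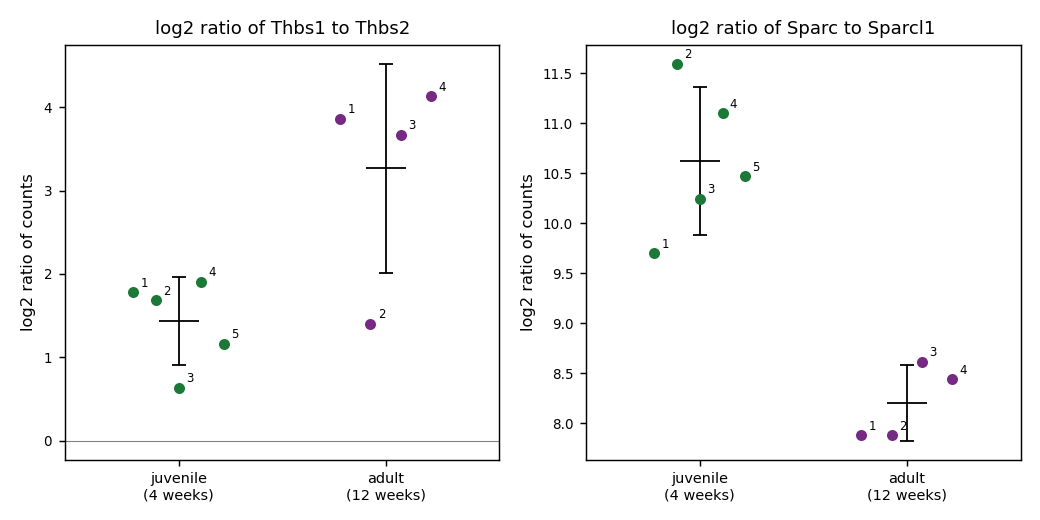
Log2 ratios of counts within each library (y axes, without units) for Thbs1 over Thbs2 and Sparc over Sparcl1, with numbered points for juvenile (green, n = 5) and adult libraries (purple, n = 4) and black bars for the mean and SD. Sparc over Sparcl1 runs from 9.70 to 11.60 in juvenile and from 7.88 to 8.62 in adult libraries, and adult replicate 2 sits with the juvenile libraries in Thbs1 over Thbs2.

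Thbs3 and Thbs4 had few counts, whereas Comp, the other pentameric member, varied widely between libraries. Thbs3 (ENSMUSG00000028047, chr3:89215180-89226837, plus strand) had 92.2, 89.5, 46.7, 132 and 85.1 normalised counts in juvenile replicates 1 to 5. In adult replicates 1 to 4 it had 65.3, 132, 0 and 16.5. The value of 0 in adult replicate 3 allows up to 0.386 CPM, and this limit covers counting error only. The log2 fold change was 0.74 (SE 0.98, 95% confidence interval -1.39 to 2.87, adjusted p = 0.792, edgeR), an interval that leaves the direction undetermined. Exons of Thbs3 share 318 bases with Mtx1 on the opposite strand, and the strand setting of the counting is not given in the sources used here, so reads of the 2 genes cannot be told apart there. Thbs4 (ENSMUSG00000021702, chr13:92751590-92794818, minus strand), a thrombospondin of muscle and tendon, was at 0 in 6 libraries. Its raw counts were 34 in juvenile replicate 4, 6 in adult replicate 3 and 1 in juvenile replicate 3. Fitted without the filter, it had a log2 fold change of 2.67 (SE 2.11, adjusted p = 0.518, edgeR). Comp (ENSMUSG00000031849), the remaining family member, had 1.18 to 50.6 normalised counts in juvenile libraries and 353, 3037, 82.3 and 37.0 in adult replicates 1 to 4. Its log2 fold change of -5.03 (SE 1.16 and an edgeR adjusted p = 0.0317) became -2.59 without adult replicate 2 (adjusted p = 0.144, edgeR), and the call was also lost without any 1 of the juvenile libraries (adjusted p of 0.0598 to 0.0846, edgeR).

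Cnmd (ENSMUSG00000022025, chr14:79637690-79662170, minus strand) was seen in few libraries. It had 333 raw counts in adult replicate 2, 18 in juvenile replicate 3, 9 in adult replicate 4, 2 in juvenile replicate 4 and 0 in the other 5 libraries. Fitted without the filter, it had a log2 fold change of -4.08 (SE 1.86, adjusted p = 0.271, edgeR). Adult replicate 2 and juvenile replicate 3 were also the libraries with the highest sums of chondrocyte markers, 4569 and 1014 CPM. Adult replicate 1 was close behind at 1010 CPM and had 0 counts of Cnmd, which allows up to 0.371 CPM. The place of juvenile replicate 3 depends on the measure, and Col10a1 alone had 4186 normalised counts there. By mean log2 CPM of the list it was at 3.505, below adult replicates 2, 1 and 4 at 6.99, 4.007 and 3.53. Of the 10 chondrocyte markers, 8 were tested and 1, Col2a1, was called, higher in adult mice. Tnmd, the relative of Cnmd in tendon, had 4 counts in juvenile replicate 5 and 0 elsewhere.

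Vash1 (ENSMUSG00000021256, chr12:86678700-86692091, plus strand) had 19, 35, 12, 7 and 9 raw counts in juvenile replicates 1 to 5. In adult replicates 1 to 4 it had 0, 26, 0 and 10. Adult replicate 2 was within the juvenile range and the other adult libraries were at its lower end or at 0. The log2 fold change of 1.04 (SE 1.28, 95% confidence interval -1.73 to 3.81, adjusted p = 0.772, edgeR) was not distinguishable from 0 at this depth. Svbp, which encodes the binding partner needed for vasohibin secretion and was named here after its values were seen, had 1096 ± 123 normalised counts (SD, n = 5) in juvenile against 798 ± 141 (SD, n = 4) in adult mice (adjusted p = 0.181, edgeR).

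**Figure D4:**
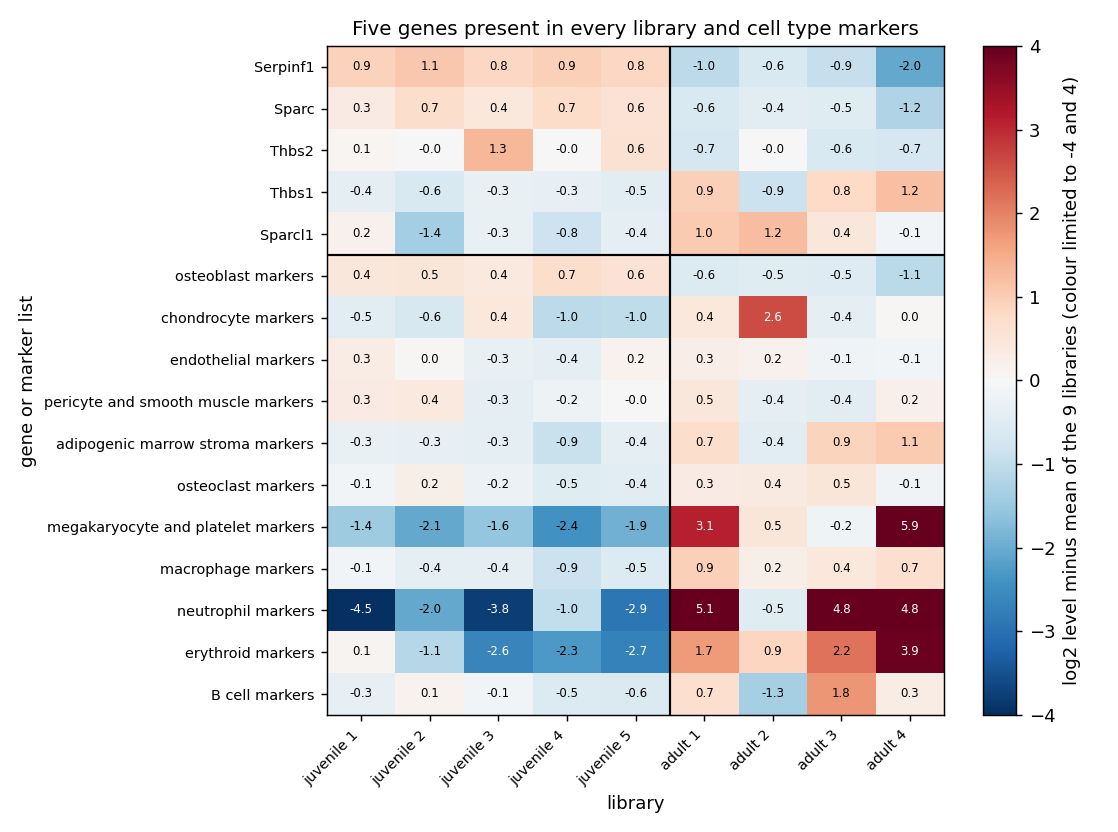
Log2 level of 5 of the genes (normalised counts, above the line) and of the summed CPM of 11 cell type marker lists (below the line), each minus its mean over the 9 libraries, for 5 juvenile (left) and 4 adult libraries (right). Serpinf1 and Sparc share the colour change of the osteoblast markers between the ages, and adult replicate 2 differs from the other adult libraries in Thbs1, neutrophil and chondrocyte markers.

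Genes that receive or process the signals of these proteins were read against the 3.88% of all genes called in edgeR. Counts of genes with an unadjusted p under 0.05 stand beside 2321 of 13418 genes. Calls in DESeq2 stand beside 1490 of the 21512 genes with a count, some of which had no adjusted p and could not be called. Of 13 thrombospondin receptors and binding partners, 12 were tested, 1 (Lrp1) was called with juvenile mice higher and 1 (Cd47) with adult mice higher. Their median log2 fold change was 0.04, where all genes tested had a median of -0.01. Cd36, the gene not tested, was at 0 in 6 libraries. It had 1.81 normalised counts in juvenile replicate 2 and 39.6 and 149 in adult replicates 3 and 4. Cd47, a thrombospondin receptor that also protects cells from phagocytosis, had 734 ± 125 normalised counts (SD, n = 5) in juvenile against 1571 ± 218 (SD, n = 4) in adult mice. The log2 difference was -1.10 (SE 0.18 and an edgeR adjusted p = 0.00593), the ages did not overlap, and the call held in all 19 other fits, 9 of them with 1 library left out. Lrp1, an endocytic receptor that clears thrombospondins, had 1794 ± 167 (SD, n = 5) and 1004 ± 275 (SD, n = 4) normalised counts, a log2 difference of 0.84 (SE 0.19 and an edgeR adjusted p = 0.0292). Leaving out any of 7 of the 9 libraries ended that call, with adjusted p-values up to 0.0806 in edgeR. Of 6 PEDF receptors, 5 were tested and 0 were called in edgeR or limma voom with the default scaling, 1 was called in DESeq2, and 1 had an unadjusted p under 0.05, at a median of -0.14. Scaled on osteoblast markers, 2 were called higher in adult mice, among them Atp5b at -0.75 (adjusted p = 0.00814, edgeR). The genes with the most counts among them were Rpsa, a laminin receptor, with a log2 fold change of 0.36 (SE 0.25), and Atp5b, a subunit of ATP synthase, with -0.14 (SE 0.16). Pnpla2, the gene with the unadjusted p under 0.05, was named here after its values were seen. Its log2 fold change was -1.18 (SE 0.38, adjusted p = 0.109, edgeR), and its ages overlapped.

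Thbs1 can activate latent TGF-beta. All 8 TGF-beta ligands and latency proteins were tested, and 0 were called in edgeR or limma voom with the default scaling, 2 in DESeq2, and 3 had an unadjusted p under 0.05, at a median of 0.39. In edgeR, 2 were called higher in adult mice when scaled on osteoblast markers, and 1 higher in juvenile mice among genes with at least 10 counts in every library. Ltbp3, a latency protein, had a log2 fold change of 0.15 (SE 0.16), and Tgfb1 one of 0.74 (SE 0.25 and an edgeR adjusted p = 0.132). Among 12 relatives of the 9 genes, 8 were tested, 1 (Smoc2) was called with juvenile mice higher and 1 (Comp) with adult mice higher, at a median of 0.45. Smoc2, a matricellular protein related to Sparc, had 427 ± 156 normalised counts (SD, n = 5) in juvenile against 148 ± 56.8 (SD, n = 4) in adult mice, which gave a log2 difference of 1.53 (SE 0.34 and an edgeR adjusted p = 0.028). Leaving out juvenile replicates 1 or 2 or adult replicates 2 or 4 ended this call, with adjusted p-values up to 0.0716 in edgeR.

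Of 17 other angiogenesis inhibitors, 11 were tested, 2 were called with juvenile mice higher and 1 with adult mice higher, and the median log2 fold change was 0.44. Timp1, an inhibitor of metalloproteinases, had 3939 ± 242 normalised counts (SD, n = 5) in juvenile against 1015 ± 605 (SD, n = 4) in adult mice, which gave a log2 difference of 1.96 (SE 0.31 and an edgeR adjusted p = 0.00538). Col18a1, the collagen that holds endostatin, had 685 ± 251 (SD, n = 5) and 262 ± 44.3 (SD, n = 4), a log2 difference of 1.39 (SE 0.29 and an edgeR adjusted p = 0.0186), and lost its call without adult replicate 3 or 4 (adjusted p = 0.0503 and 0.0535, edgeR). Pf4, a platelet chemokine, was called higher in adult mice, at 10.6 to 73.5 normalised counts in juvenile and 360 to 12147 in adult libraries. In limma voom the calls of Pf4, Col18a1, Smoc2 and Comp were lost (adjusted p = 0.112, 0.0815, 0.0789 and 0.274). Of 10 VEGF ligands and receptors, against which several of these inhibitors act, 9 were tested, 0 were called in edgeR or limma voom with all libraries and the default scaling and filter, 2 were called in DESeq2 (Nrp2 among them, adjusted p = 0.0172), and 3 had an unadjusted p under 0.05. Other edgeR fits called 2 when scaled on osteoblast markers, 1 with at least 10 counts in every library, 1 without juvenile replicate 3 and 1 without adult replicate 1. The median was 0.21, and the genes with the most counts were the co-receptors Nrp2 and Nrp1, with log2 fold changes of 0.50 (SE 0.16, adjusted p = 0.0966) and 0.21 (SE 0.17, adjusted p = 0.607) in edgeR. Scaled on osteoblast markers, where the median of all genes was -0.64, the medians of all 6 lists were below 0, from -0.75 to -0.18, and Lrp1, Smoc2 and Col18a1 were not called (adjusted p = 0.473, 0.0775 and 0.0928, edgeR). Without juvenile replicates 4 and 5, Timp1 and Pf4 were not called (adjusted p = 0.0669 and 0.087, edgeR).

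**Figure D5:**
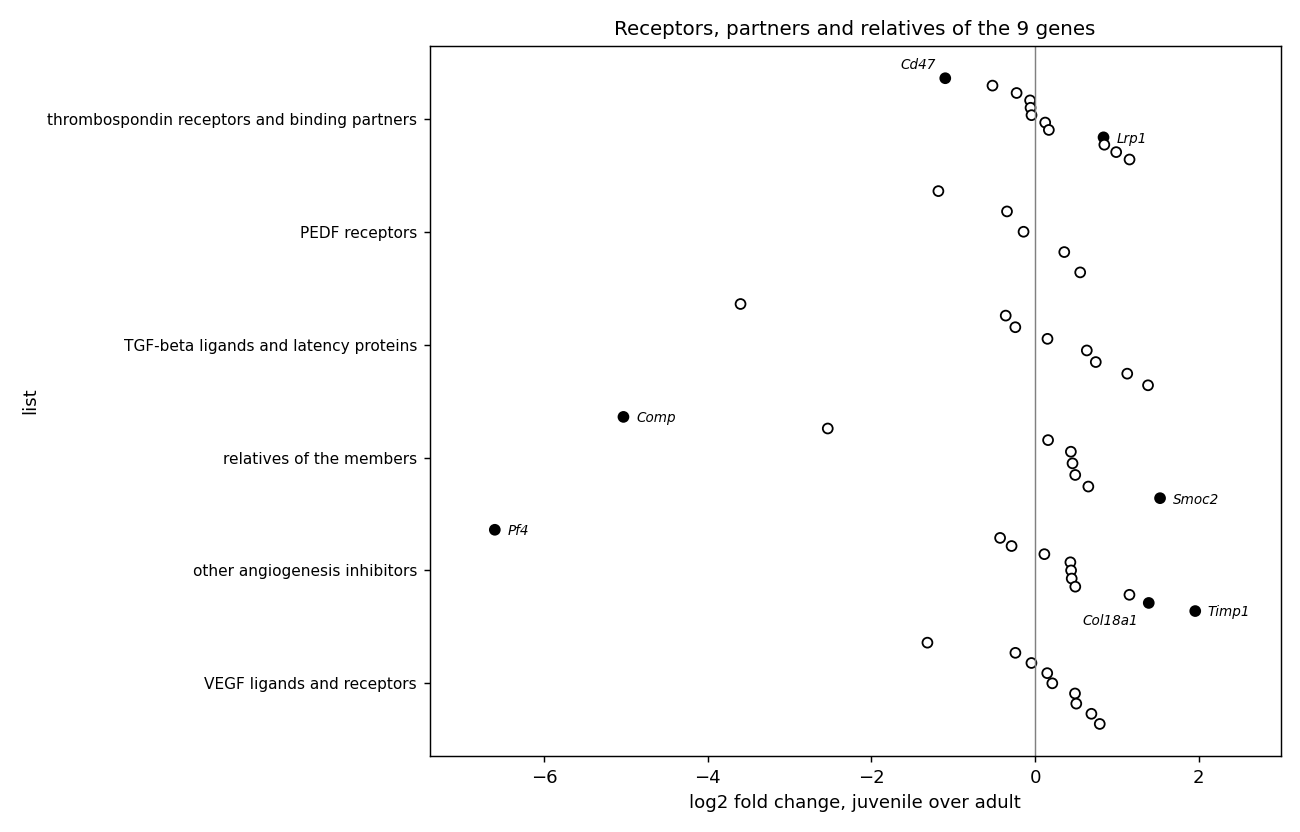
Log2 fold changes (x axis, juvenile over adult) of the tested genes of 6 lists (y axis), with 1 circle per gene, filled and named where the adjusted p in edgeR is under 0.05. The filled circles are 4 to the right of 0 (Lrp1, Smoc2, Col18a1 and Timp1) and 3 to the left (Cd47, Comp and Pf4).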

How the data were processed

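RNA of microdissected capillaries with surrounding cells was purified, amplified with the SMART-Seq v4 kit for very low input and sequenced as paired-end reads. The authors mapped the reads to mouse mm10 (GRCm38) with TopHat2 and Bowtie2, and the submitters' processing notes also name featureCounts. The deposited values are whole-number counts per Ensembl gene, without normalization, in 1 file per library. The annotation release, the strand setting and the handling of read pairs are not given in the sources used here. Library totals were 4856833 to 8077362 counts, so 3 counts correspond to 0.371 to 0.618 CPM. The study speaks of different mice, and the labels name no animals, so p-values measure the spread between these libraries. All 36 pairs of libraries differed by more than sampling noise.

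Symbols, positions and union exon lengths came from GENCODE M21, which holds 37693 of the 39179 identifiers. Juvenile and adult counts were tested in edgeR 4.0.16 (R 4.3.3, filterByExpr defaults, TMM scaling, quasi-likelihood F test without covariates, Benjamini-Hochberg adjustment over all genes tested, threshold 0.05). Standard errors are the log2 fold change over the square root of F. Normalised counts are counts over the effective library size relative to its geometric mean, and log2 CPM used a prior count of 2. The 2 log2 ratios used 1 added count and exact permutation tests. The alternatives were DESeq2 1.42.0, limma 3.58.1 voom, other scalings and filters, the replicate number as a block, a fit without juvenile replicates 4 and 5 (more Y-linked than Xist counts), and each library left out. Fits were tested on simulated counts. The genes and lists were chosen with earlier results of these data known. Named genes are the 9 genes, the called genes of each list (at most the 4 with the smallest adjusted p, or else the 2 most abundant), and the 3 genes most similar in pattern to each called gene. Cd36, Pnpla2 and Svbp were named outside this rule. Figures were drawn with matplotlib 3.10.9.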

Additional observations from a re-analysis of the deposited data

Results flagged for a closer look

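In 5 of 18 groups of 4 or 5 libraries, 1 library stood apart from the others of its age by the ratio of its gap to the group's range. Chance gives about 1 in 20 groups for normally distributed values. Counts of genes with many libraries at 0 are not so distributed, so the 5 groups cannot be set against that rate. Thbs2 in adult replicate 2 was at 214 normalised counts, and the remaining adult libraries lay at 135 to 141. Cnmd in adult replicate 2 was at 349 normalised counts against 0 to 7.08, and in juvenile replicate 3 it was at 24.0 against 0 to 2.36. Thbs4 in juvenile replicate 4 was at 40.1 normalised counts against 0 to 1.34, and in adult replicate 3 it was at 4.66 where the remaining adult libraries had 0. The 3 groups of Thbs4 and Cnmd in which most libraries are at 0 rest on few counts.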

How the results depend on the processing

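Serpinf1 kept its direction and its call in all 10 alternatives (log2 fold change 1.42 to 2.08, adjusted p at most 0.022) and without each library (1.74 to 2.15). Sparc kept its direction throughout and lost its call when libraries were scaled on endothelial markers (1.04, adjusted p = 0.0702) and under the replicate block (1.23, adjusted p = 0.0529). Thbs1 and Sparcl1 were called, higher in adult mice, when scaled on osteoblast markers (-1.81 and -1.75), with DESeq2 (-1.14 and -1.21) and with at least 10 counts in every library (-1.13 and -1.20). Their ranges with 1 library left out were -1.42 to -0.92 and -1.40 to -0.998. Of the 9 genes, 4 were called in each of these 3 settings, 1 when scaled on endothelial markers and 1 under the replicate block, and 2 or 3 with 1 library left out. Among all genes with at least 10 counts in every library, 647 of 9847 were called. Over all genes, 520 calls became 2313 when scaled on osteoblast markers (5.01% of them higher in juvenile mice against 51.4%), 294 on endothelial markers (26.2%), 1490 with DESeq2, 89 under the replicate block, 73 without juvenile replicates 4 and 5, and 262 to 651 with 1 library left out. Without these same 2 libraries the log2 ratio of Thbs1 to Thbs2 differed by -1.90 (exact permutation test, p = 0.114), and with 1 library left out by -2.45 to -1.54. Scaling on osteoblast markers turned the uncalled differences of Rpsa (-0.31), Ltbp3 (-0.46), Nrp2 (-0.13) and Nrp1 (-0.44), and scaling on endothelial markers those of Ltbp3 (-0.0526) and Nrp1 (-0.077). The replicate block also ended the calls of Pf4 (adjusted p = 0.0938), Col18a1 (0.0764), Smoc2 (0.104) and Lrp1 (0.11), each in edgeR. The cause of these changes was not tested. Replicate numbers are not pairs in the labels, and same-numbered libraries deviated from their age means with correlations of -0.03 to 0.03 across genes. The low counts of Thbs3, Thbs4, Cnmd and Vash1 limit what can be said of them.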
